A study of Saccharomyces cerevisiae with 32 samples.

Results

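The nuclear genes of the yeast respiratory chain and of the mitochondrial ATP synthase were followed after a change of sugar. The set holds 34 of the 6717 genes in the expression table and was chosen by name: 4 subunits of complex II (SDH1 to SDH4), 9 of complex III (COR1, QCR2, QCR6, QCR7, QCR8, QCR9, QCR10, RIP1 and CYT1), cytochrome c (CYC1), 8 of complex IV (COX4, COX5A, COX6, COX7, COX8, COX9, COX12 and COX13), the internal NADH dehydrogenase (NDI1) and 11 of the ATP synthase (ATP1, ATP2, ATP3, ATP4, ATP5, ATP7, ATP14, ATP15, ATP16, ATP17 and ATP20). The samples were Saccharomyces cerevisiae cultures of a tps1 strain (DBY12383) and of a wild-type strain (WT, DBY12000). Both strains were in log phase in a yeast nitrogen base medium containing 2% galactose and received glucose or fructose to 2%. Poly(A) RNA was sequenced at 0, 3, 5, 10, 15, 30, 60 and 120 min, where 0 min is the galactose culture before sugar. Each strain, sugar and time has 1 library, so there are 16 tps1 and 16 WT libraries, and each strain has 2 galactose libraries, 1 from each course. The labels give the genotype only as tps1 and do not say whether the courses were separate cultures. Libraries of 1 course are serial samples, so p-values measure the spread among them and not among independent cultures. The label of the tps1 galactose library of the fructose course carries an unexplained mark, trd.

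In the yeast inner mitochondrial membrane, NDI1 and complex II pass electrons from NADH and succinate to coenzyme Q. Complex III, cytochrome c and complex IV carry them to oxygen and pump protons, and the ATP synthase uses the proton gradient to make ATP. Budding yeast ferments glucose even in air, and represses many respiratory genes when glucose is plentiful; the HAP complex, whose activating subunit is HAP4, binds CCAAT-type sequences in many of their promoters. TPS1 encodes trehalose-6-phosphate synthase, and tps1 mutants are known for failing to grow on rapidly fermented sugars.

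The promoters of these genes share a sequence feature that the choice by name did not use. In the 300-base window from 400 to 101 bases upstream of the start codon, read from the RefSeq R64 genome, CCAAT on either strand stood in 31 of 34 windows (91.2%), against 2636 of 6001 windows of all genes (43.9%). The longer form TNATTGGT, searched on both strands and containing the complement of CCAAT, stood in 15 of 34 windows (44.1%), against 320 of all 6001 (5.33%). The Hap1 motif, a direct repeat of CGG with TA in the spacer, searched on both strands, was in the window of QCR6 (1 of 34, 2.94%), against 13 of all 6001 (0.217%). The windows without CCAAT were those of CYT1, CYC1 and COX4. A match describes letters in a window, not a bound site. The following 28-base stretches show TNATTGGT (capitals) in a member of each complex that has it and in NDI1. NDI1 was lower after sugar in both strains. Where several members of a complex had it, the one shown had the largest tps1 minus WT difference late in fructose, described below. The examples are therefore not neutral with respect to expression. Strand and coordinates are R64.
SDH1, chrXI:171430-171457, plus strand: ttctgcgctgTGATTGGTccacccccgc
COR1, chrII:135850-135877, plus strand: tattggcattTCATTGGTgcagaaagcg
COX8, chrXII:910150-910177, plus strand: ttctctcgtaTGATTGGTgcaaaccgtt
NDI1, chrXIII:30018-30045, plus strand: tgccttcataTGATTGGTccgaatgaat
ATP15, chrXVI:29935-29962, minus strand: ggatcaaattTCATTGGTtcgtataaaa

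SDH1 and NDI1 are shown in full because both windows hold the same octamer while their transcripts ran different courses in tps1 cells. Both genes are on the minus strand and both windows are written in the direction of the gene, with CCAAT or its complement in capitals. SDH1 occupies chrXI:169207-171129 and NDI1 chrXIII:28266-29807.
SDH1 window, chrXI:171230-171529, minus strand: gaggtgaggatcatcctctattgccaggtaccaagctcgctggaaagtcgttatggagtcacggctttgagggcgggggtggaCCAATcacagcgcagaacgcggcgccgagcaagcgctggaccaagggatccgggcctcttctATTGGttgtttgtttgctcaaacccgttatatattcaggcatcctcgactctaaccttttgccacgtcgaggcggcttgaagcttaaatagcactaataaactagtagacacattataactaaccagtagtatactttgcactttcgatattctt
NDI1 window, chrXIII:29908-30207, minus strand: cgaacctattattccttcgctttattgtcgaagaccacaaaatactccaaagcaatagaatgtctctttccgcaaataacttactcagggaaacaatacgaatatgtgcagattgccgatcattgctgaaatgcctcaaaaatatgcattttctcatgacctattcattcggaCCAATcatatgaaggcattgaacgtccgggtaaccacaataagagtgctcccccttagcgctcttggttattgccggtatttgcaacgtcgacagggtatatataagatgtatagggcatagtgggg
The SDH1 window holds CCAAT or its complement at 2 places and the NDI1 window at 1. The nearest base of TNATTGGT lies 311 bases upstream of the start codon in SDH1 and 221 bases upstream in NDI1.

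The deposited values are FPKM (fragment counts scaled by transcript length and by library depth), which allows levels to be compared between genes per length. Steps among low values put the fragments in genes of 400 bases or more at 3.99 to 9.74 M (mega) per library, with a median of 7.62 M. Shorter and unmatched genes are left out of this estimate. At least 407 fragments lay behind each value of the 21 members of 400 bases or more. TPS1 itself had 0 to 1.18 FPKM in the 16 tps1 libraries, against 43.2 to 325.7 FPKM in the 16 WT libraries. The FPKM of a library did not add up to a fixed total: the sum was higher in tps1 libraries after sugar (up to 2.58 M) than in tps1 galactose libraries (1.19 and 1.30 M). Setting all sums equal shifted the median gene of tps1 cells against galactose by -0.49 (early glucose), -0.76 (late glucose), -0.46 (early fructose) and -0.87 (late fructose) on the log2 scale, and that of the tps1 to WT difference by -0.21 to -0.54. Values under equal sums, taken over genes of at least 300 bases and without unmatched genes, are therefore given as well.

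In galactose none of the 34 genes was called as different between the strains at the threshold used throughout, a Benjamini-Hochberg adjusted p under 0.05 and at least a 2-fold change in limma on log2(FPKM + 1) (0 of 34 higher and 0 of 34 lower, against 0.0161% and 0.113% of the 6203 genes tested). At an unadjusted p under 0.05 there was 1 of 34 (all genes 11.8%), and the median difference was 0.02. With 2 galactose libraries per strain, small differences could not be detected. The most abundant transcripts per length were CYC1, with 4163 ± 265 FPKM in tps1 cells and 3783 ± 109 FPKM in WT cells (SD, n = 2 each), and ATP15, the epsilon subunit of the ATP synthase, with 3853 ± 66.6 FPKM in tps1 cells and 3936 ± 354 FPKM in WT cells. Their order was not resolved beyond this spread. At the low end stood NDI1, with 358 ± 32.5 FPKM in tps1 cells and 393 ± 4.84 FPKM in WT cells, and SDH1, with 486 ± 2.05 FPKM in tps1 cells and 479 ± 1.66 FPKM in WT cells. Subunits of the same complex were not at equal levels: the flavoprotein SDH1 was below the membrane anchor SDH3 in every galactose library. Of the 34 genes, 7 are shorter than 300 bases, where FPKM depends most on the length correction.

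After sugar the strains parted. In WT cells all 34 genes were below their galactose mean at 10, 15, 30, 60 and 120 min of glucose, with the lowest median at 15 min (-0.93 on the log2 scale, 52.4% of galactose). In WT cells given fructose the lowest median came at 30 min (-0.96, 51.4%), again with all 34 genes below galactose. In tps1 cells given fructose the median lay above galactose at each time, by 0.23 at 3 min and 0.54 at 120 min. In tps1 cells given glucose it was 0.43 at 30 min and -0.24 at 120 min, when 25 of 34 genes were below galactose. Under equal FPKM sums the tps1 medians over the early and late libraries changed sign, as the tests show.

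**Figure D1:**
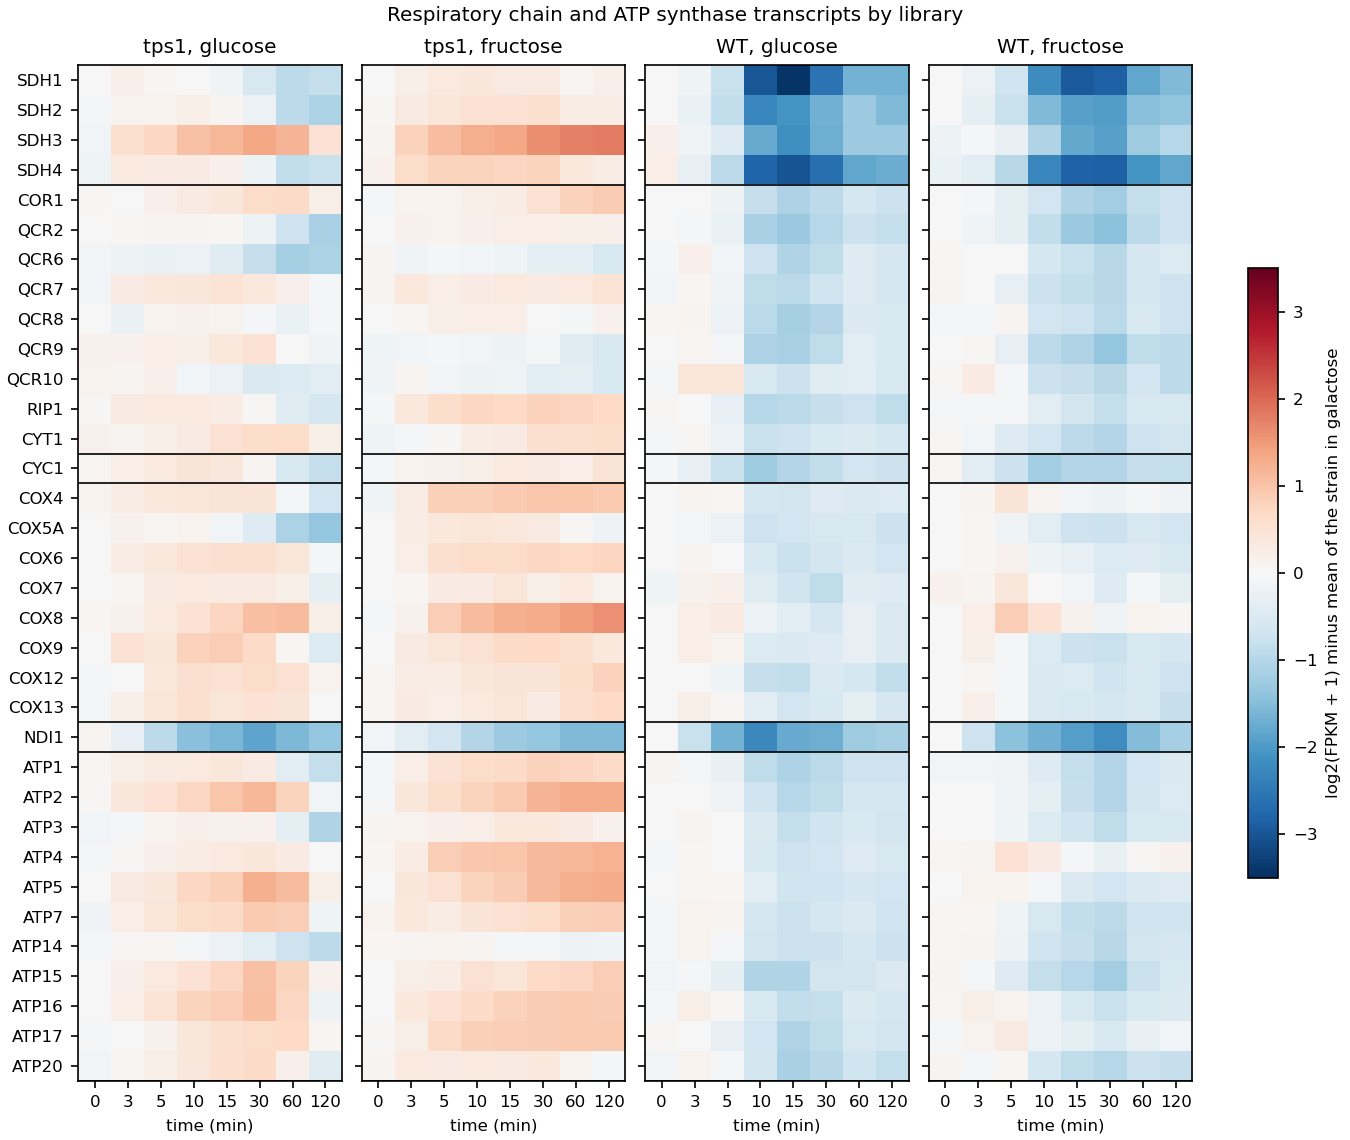
Each row is 1 of the 34 genes and each column 1 library; colour gives log2(FPKM + 1) minus the mean of the strain's 2 galactose libraries, with tps1 courses left of WT courses. WT cells are blue in all 34 rows from 10 min of glucose on and in 30 or more from 10 min of fructose on, deepest in the 4 SDH rows and NDI1, while tps1 cells are mostly red apart from NDI1, a direction that turns for most genes when FPKM sums are set equal.

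Libraries were grouped as early (3, 5, 10 and 15 min, n = 4) and late (30, 60 and 120 min, n = 3), and each group was set against the strain's galactose libraries. In tps1 cells, the early glucose libraries gave 0 genes higher (all genes 0.403%) and 1 lower (3.27%), with a median of 0.30 over the 34 genes and 6 at an unadjusted p under 0.05 (all genes 36.0%). The late glucose libraries gave 0 higher (7.48%) and 2 lower (7.85%), with a median of 0.11. In tps1 cells given fructose there were 0 higher (0.645%) and 0 lower (2.37%) early, with a median of 0.35 and 11 at an unadjusted p under 0.05 (all genes 33.1%), and without the 3 min library 2 were called. Late in fructose 5 were higher (7.5%) and 1 lower (8.77%), with a median of 0.53. Without the fold limit these comparisons gave, in the order early glucose, late glucose, early fructose and late fructose, 0 higher (10.8%) and 1 lower (11.5%), 2 (19.9%) and 4 (24.5%), 4 (9.25%) and 0 (9.53%), and 17 (23.4%) and 1 (24.0%). Most tps1 members thus passed neither rule except late in fructose, where 17 of 34 were higher without the fold limit. Under equal FPKM sums these tps1 medians became -0.24, -0.67, -0.14 and -0.38, in the order early glucose, late glucose, early fructose and late fructose. The calls under equal sums became 0 higher and 1 lower (all genes 0.0484% and 14.5%), 0 and 11 (1.13% and 35.3%), 0 and 1 (0.0806% and 11.1%), and 0 and 5 (0.339% and 41.0%), in the same order. The direction of most tps1 members against galactose therefore depends on how the libraries are scaled.

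In WT cells the direction did not depend on scaling: the median was negative in all 4 comparisons as deposited (-0.44 early and -0.65 late in glucose, -0.34 early and -0.73 late in fructose) and under equal sums (-0.60, -0.83, -0.55 and -1.03). Few single genes passed the threshold, and all that did were lower. In glucose 0 were higher (all genes 3.89%) and 3 lower (3.16%) early, and 0 higher (0.451%) and 1 lower (1.29%) late. In fructose 0 were higher (2.42%) and 1 lower (2.64%) early, and 0 higher (1.52%) and 5 lower (2.45%) late. Without the fold limit, 4 (6.85%), 2 (1.92%), 2 (5.9%) and 10 (5.3%) genes were lower, in the order early glucose, late glucose, early fructose and late fructose, and 0 were higher (9.5%, 0.887%, 7.61% and 5.19%). At an unadjusted p under 0.05 the counts were 15, 29, 10 and 29 of 34, against 30.8%, 21.8%, 29.2% and 28.3% of all genes. The WT calls rest on both galactose libraries: without either of them, 0 of 34 genes passed in any of the 4 WT comparisons. Without the 3 min library the early WT counts were 6 in glucose and 4 in fructose, and without either the 10 or the 15 min library the early glucose count was 1. Without the 5 min library the early fructose count was 0. Late fructose gave 0 without the 30 or the 60 min library and 8 without the 120 min library, and late glucose gave 0 without the 30 or the 60 min library. Under equal sums 4, 4, 3 and 19 genes were lower (all genes 4.05%, 2.18%, 3.97% and 6.52%).

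The strain difference was tested at matched sugar and time, tps1 minus WT, which sets aside the course that both strains share. All 34 differences were positive early in glucose (median 0.78), early in fructose (0.72) and late in fructose (1.27), and 31 of 34 late in glucose (0.82). In glucose 7 genes were higher in tps1 cells early (all genes 5.14%) and 11 late (11.0%). In fructose 5 were higher early (3.64%) and 23 late (9.61%). The direction was thus shared by nearly all members. In these 4 comparisons 0 of 34 were lower, against 8.03%, 10.5%, 5.4% and 9.79% of all genes. Without the fold limit the counts of higher genes were 29 (24.9%) and 18 (25.9%) in glucose, early and late, and 26 (18.1%) and 33 (27.2%) in fructose, with 1 gene, COX5A, lower late in glucose (30.5%). Equal FPKM sums left 5 (2.64%) and 1 (4.31%) genes called in glucose and 4 (2.44%) and 8 (3.02%) in fructose, with medians of 0.47, 0.29, 0.50 and 0.71. Every tps1 library was above every WT library of the same sugar and period in 23 of 34 genes early (20.1%) and 23 late (24.9%) in glucose, and in 23 early (18.6%) and 33 late (31.3%) in fructose. The exception late in fructose was NDI1. The early counts moved with single times: without the 3 min libraries they were 15 in glucose and 10 in fructose, without the 5 min libraries 11 in glucose, without the 10 min libraries 3 in each sugar, and without the 15 min libraries 4 in glucose.

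The median difference was larger at each time up to 15 min of glucose and 30 min of fructose. The median tps1 minus WT difference over the 34 genes in glucose was -0.01 at 0 min, 0.16 at 3 min, 0.42 at 5 min, 1.17 at 10 min, 1.4 at 15 min, 1.22 at 30 min, 0.70 at 60 min and 0.47 at 120 min. In fructose it was 0.02, 0.23, 0.44, 0.92, 1.2, 1.45, 1.19 and 1.2 at the same times. At 10 min all 34 genes were higher in tps1 cells in both sugars, also when each gene was taken as a share of the library's summed FPKM. As a share, 33 of 34 were higher in tps1 cells before sugar in the fructose course (median 0.22). In the glucose course 20 of 34 were higher before sugar (median 0.02). At 120 min of glucose 25 of 34 were higher in tps1 cells as deposited, but 13 of 34 as a share, where the median was -0.11. The share uses the sum over all genes, and equal sums use that over genes of at least 300 bases, without genes unmatched to the annotation. In tps1 cells at 120 min of glucose the full sum was 2.09 M, and equal sums divided by 1.04. At 60 min these were 2.28 M and 1.46. The sign of the median at 120 min therefore depends on the total used.

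**Figure D2:**
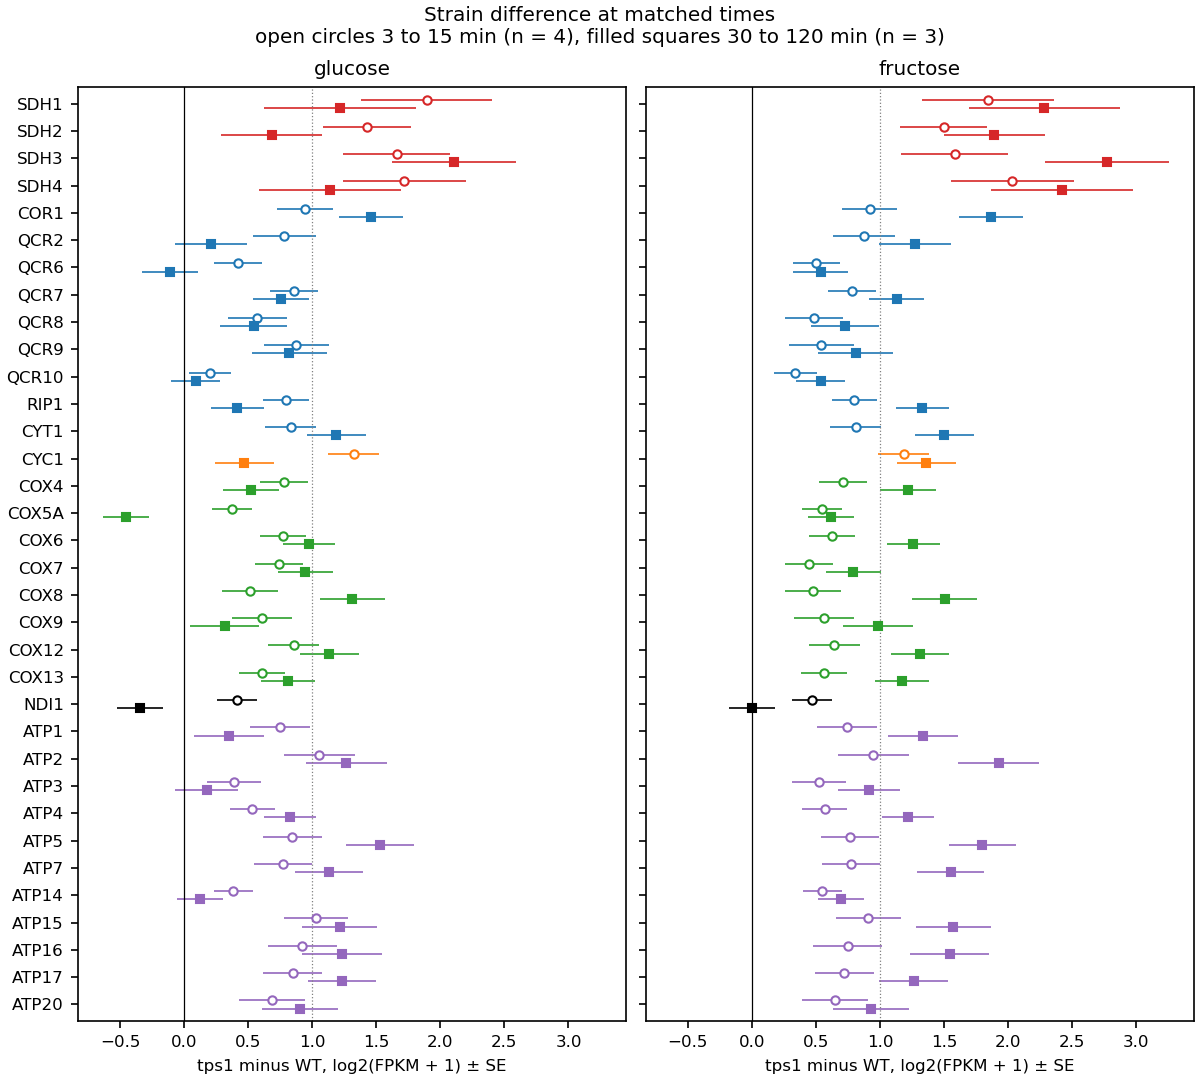
The horizontal axis is tps1 minus WT in log2(FPKM + 1) with its standard error, for 34 genes in glucose and fructose; open circles are 3 to 15 min (n = 4) and filled squares 30 to 120 min (n = 3). The 4 SDH genes lie furthest right in the early libraries, and NDI1 lies between -0.34 and 0.47; equal FPKM sums move the points left, so that CYC1 and QCR2, among others, pass below 0 late in glucose.

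A further fit asked whether the change from galactose itself differed between strains, by taking the strain difference relative to that in galactose. It called CYC1 alone early in glucose (1 of 34 higher, all genes 1.61%) and 6 genes late in glucose (8.22%): ATP5, COR1, COX12, COX8, CYT1 and SDH3. It called 0 early in fructose (0.339%), where 9 of 34 had an unadjusted p under 0.05 (all genes 23.6%), and 20 late in fructose (7.34%). None was lower, against 4.95%, 7.72%, 1.0% and 7.03% of all genes. This fit carries the spread of the 4 galactose libraries as well. It was run on the deposited scaling alone, so how many of these calls would hold under equal FPKM sums is not given.

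Complex II, which oxidises succinate to fumarate, showed the deepest change in WT cells. Its 4 subunits had a median of -2.58 at 15 min of glucose and -2.42 at 30 min of fructose, where the 34 genes together had -0.93 and -0.96. SDH1 (YKL148C), the catalytic flavoprotein, had 485, 555, 511, 485, 448, 330.2, 257 and 273 FPKM in tps1 cells at 0, 3, 5, 10, 15, 30, 60 and 120 min of glucose, against 479.8, 434, 279, 59, 43.6, 78.9, 152 and 152 FPKM in WT cells. In fructose SDH1 had 488, 565, 614, 636, 605, 600.5, 510.0 and 551 FPKM in tps1 cells at the same times, against 477, 411, 296, 104, 61.9, 64.7, 135 and 163 FPKM in WT cells. The galactose values of the strains were close to each other, while after 5 min every tps1 value was above every WT value of either sugar.

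SDH1 was higher in tps1 cells by 1.89 ± 0.51 early in glucose (SE, limma, adjusted p = 0.0071), 1.84 ± 0.51 early in fructose (adjusted p = 0.0124) and 2.28 ± 0.59 late in fructose (adjusted p = 0.00515), and these were called under equal sums too (1.58, 1.63 and 1.72). Late in glucose the difference was 1.21 ± 0.59 and did not pass (adjusted p = 0.0933). The fructose calls of SDH1 depended on single times: the early call was lost without the 10 or the 15 min libraries and the late call without the 30 min libraries, and the early glucose call was lost without the 10 min libraries. In WT cells alone SDH1 was at -1.84 early and -1.96 late in glucose, and -1.51 early and -2.08 late in fructose, none past the threshold (adjusted p = 0.0553, 0.103, 0.125 and 0.0528). The 4 early values of SDH1 in WT cells given glucose ran between 434 and 43.6 FPKM. SDH1 shares 78.0% identity over 1696 aligned bases with SDH9, so reads could be split between these genes.

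SDH2 (YLL041C), the iron-sulfur subunit, and SDH4 (YDR178W), a membrane anchor, were the complex II genes called in WT cells. SDH2 had 1315, 1481, 1485, 1551, 1452, 1179.8, 709.9 and 631 FPKM in tps1 cells given glucose, against 1429.9, 1205, 789, 295, 336, 443, 585 and 492 FPKM in WT cells. SDH4 had 897, 1265, 1215, 1205, 1115, 868, 542 and 576 FPKM in tps1 cells given glucose, against 1452, 1013, 649, 174, 152, 198, 348 and 366 FPKM in WT cells. Both fell in WT cells early in glucose (SDH2 -1.36 ± 0.40, adjusted p = 0.0207; SDH4 -1.76 ± 0.58, adjusted p = 0.0376) and late in fructose (SDH2 -1.60 ± 0.42, adjusted p = 0.019; SDH4 -2.27 ± 0.61, adjusted p = 0.0215). Leaving out either WT galactose library ended all 4 of these calls, as did leaving out the 10 or 15 min library early and the 30 or 60 min library late. In tps1 cells neither was called against galactose. The strain difference of SDH4 was 1.72 ± 0.48 early and 1.14 ± 0.55 late in glucose, and 2.03 ± 0.48 early and 2.43 ± 0.55 late in fructose (adjusted p = 0.00848, 0.0937, 0.00515 and 0.00232), with the early glucose call lost without the 10 or the 15 min libraries.

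SDH3 (YKL141W), the other membrane anchor, took a course of its own among the complex II genes in tps1 cells. It had 1449.5, 2258, 2567, 3142, 3425, 3929, 3517 and 2209 FPKM in tps1 cells given glucose, against 2191, 1770.5, 1427, 568, 435, 589.6, 802 and 809.9 FPKM in WT cells. In fructose it had 1642, 2696, 3252, 3701, 3941, 4810.4, 5204 and 5314 FPKM in tps1 cells, against 1723, 1872, 1619.7, 930.2, 559, 520.0, 822 and 972 FPKM in WT cells. All tps1 values from 3 min on were above both tps1 galactose values, and all WT values from 5 min on were below both WT galactose values. COX8, ATP5 and ATP15 also had all tps1 values after sugar above both tps1 galactose values in both sugars. SDH3 was the member furthest above galactose in tps1 cells late in fructose, 1.73 ± 0.46 (adjusted p = 0.00353), and under equal sums it was 0.81 and not called. Its strain difference was 2.10 ± 0.48 late in glucose (adjusted p = 0.00212) and 2.77 ± 0.48 late in fructose (adjusted p = 0.000381). SDH3 was the gene still called late in glucose under equal sums (1.57). The early differences were 1.66 ± 0.42 in glucose and 1.58 ± 0.42 in fructose (adjusted p = 0.00476 and 0.00967), of which the fructose call was lost without the 10 min libraries.

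Because a ratio of transcripts within a library does not depend on its scaling, SDH3 was also set over SDH1, a ratio chosen after the values were seen. It was 2.99, 4.07, 5.03, 6.47, 7.65, 11.9, 13.7 and 8.1 in tps1 cells at 0 to 120 min of glucose, against 4.57, 4.08, 5.12, 9.62, 9.97, 7.47, 5.29 and 5.31 in WT cells. In fructose it was 3.37, 4.77, 5.3, 5.82, 6.52, 8.01, 10.2 and 9.65 in tps1 cells, against 3.61, 4.55, 5.48, 8.94, 9.04, 8.03, 6.09 and 5.96 in WT cells. The ratio was above its galactose values in both strains at 10 min, and at 60 min it was higher in tps1 cells in both sugars.

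**Figure D3:**
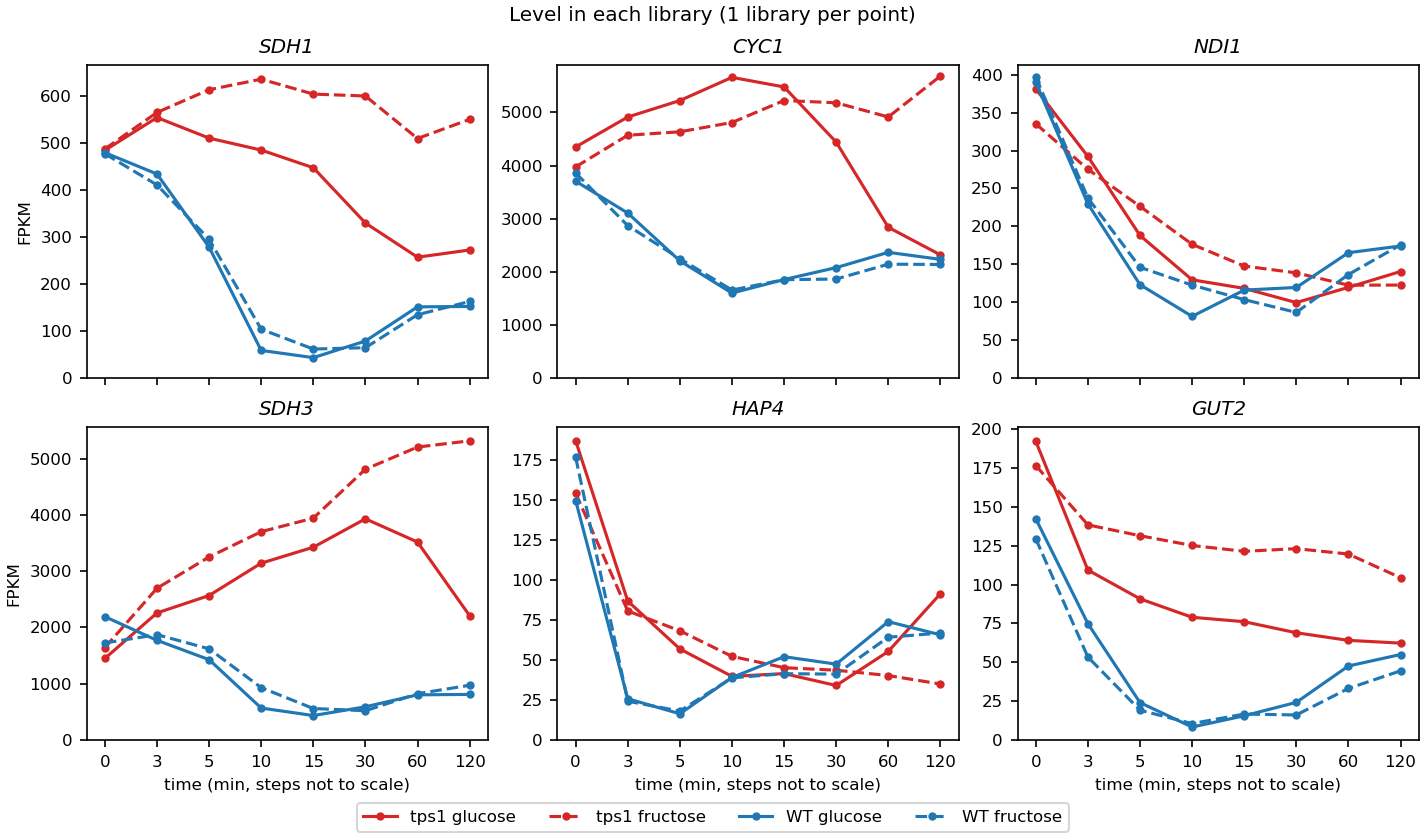
FPKM in each library against time for 3 subunits of the chain (SDH1, CYC1, NDI1), the anchor subunit SDH3, the regulator HAP4 and the glycerol-3-phosphate dehydrogenase GUT2; red is tps1, blue WT, solid glucose and dashed fructose, 1 library per point. SDH1, CYC1 and SDH3 separate by strain from 5 min on, with CYC1 in glucose close again at 120 min, whereas NDI1 and HAP4 are low in all 4 courses after sugar.

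Complex III passes electrons from coenzyme Q to cytochrome c. Its 9 subunits had medians of 0.80 early and 0.54 late in glucose for tps1 minus WT, and 0.78 early and 1.13 late in fructose. Of the 9, 0 were called early in glucose (all genes 5.14% higher) or early in fructose (3.64%). Late calls were 2 in glucose (COR1 and CYT1, all genes 11.0%) and 5 in fructose (9.61%). COR1 (YBL045C), a core subunit, had 1103, 1083, 1199, 1322, 1401, 1659, 1685 and 1218 FPKM in tps1 cells given glucose, against 916, 919, 820.5, 532, 437, 493, 601 and 550.2 FPKM in WT cells. In fructose COR1 had 1029.8, 1169, 1158, 1235, 1277, 1557, 1861 and 1972 FPKM in tps1 cells, against 942, 878, 736, 586, 439, 399, 523 and 562 FPKM in WT cells. Every tps1 value of COR1 was above every WT value, galactose included. The difference was 1.46 ± 0.25 late in glucose (adjusted p = 0.000261) and 1.87 ± 0.25 late in fructose (adjusted p = 7.72e-05). Under equal sums the late glucose difference was 0.93, under the fold limit, and that in fructose was 1.31 and called.

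QCR2 (YPR191W), the other core subunit, followed COR1 in WT cells but not in tps1 cells given glucose. QCR2 had 1019, 1060.2, 1100.0, 1102, 1067, 912, 624 and 472 FPKM in tps1 cells, against 999, 964, 863, 461, 407, 505, 605 and 570.2 FPKM in WT cells. The ratio of COR1 to QCR2 in tps1 cells given glucose was 1.08, 1.02, 1.09, 1.2, 1.31, 1.82, 2.7 and 2.58, against 0.917, 0.954, 0.951, 1.16, 1.07, 0.977, 0.993 and 0.965 in WT cells. In fructose the ratio was 0.974, 1.01, 1.02, 1.04, 1.05, 1.27, 1.55 and 1.69 in tps1 cells, against 0.921, 0.95, 0.929, 1.06, 1.06, 1.08, 0.977 and 0.922 in WT cells. From 30 min on the ratio was above all WT values in both tps1 courses. This ratio was also chosen after the values were seen. QCR2 fell in WT cells late in fructose (-1.03 ± 0.31, adjusted p = 0.0339), as did the small subunit QCR9 (-1.06 ± 0.31, adjusted p = 0.0304), and both calls were lost without either WT galactose library or the 30 or 60 min library.

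CYT1 (YOR065W) is cytochrome c1, the haem protein that hands electrons to cytochrome c. Its strain difference was 1.19 ± 0.23 late in glucose and 1.50 ± 0.23 late in fructose (adjusted p = 0.000636 and 0.000163), and 0.66 and 0.94 under equal sums, where neither was called. RIP1, the Rieske iron-sulfur protein, QCR7 and QCR2 were called late in fructose alone (1.33, 1.13 and 1.27, adjusted p = 0.000176, 0.000717 and 0.00189), and not under equal sums. The small subunits QCR8 and QCR10 were called in no comparison as deposited. QCR6, an acidic subunit, was the only complex III gene called in tps1 cells against galactose. It had 1063, 1000.3, 962, 974, 843, 650.3, 509 and 521 FPKM in tps1 cells given glucose, against 914, 1060.0, 883, 574, 456, 512, 683 and 622 FPKM in WT cells. QCR6 fell late in tps1 cells given glucose, by 1.02 ± 0.25 (adjusted p = 0.00211), close to the 2-fold limit, and it was not called without the galactose library of the tps1 fructose course or without the 60 or 120 min library. The late glucose count of the set was then 1 without that galactose library and 1 without the 60 min library. The strain difference of QCR6 late in glucose was not called (-0.11 ± 0.22, adjusted p = 0.678).

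Cytochrome c shuttles electrons between complexes III and IV. CYC1 (YJR048W), its main isoform, had 4349.9, 4913, 5223, 5659, 5479, 4441, 2838 and 2319 FPKM in tps1 cells given glucose, against 3705, 3105, 2206, 1600.1, 1855, 2079, 2367 and 2235 FPKM in WT cells. In fructose CYC1 had 3975, 4570.1, 4635, 4809, 5224, 5181, 4914 and 5683 FPKM in tps1 cells, against 3859.8, 2869, 2247, 1657, 1853, 1864, 2144 and 2138 FPKM in WT cells. In glucose the strains were furthest apart at 10 min and close at 120 min, whereas in fructose they stayed apart. CYC1 was higher in tps1 cells early in glucose (1.32 ± 0.20, adjusted p = 0.000204), early in fructose (1.19 ± 0.20, adjusted p = 0.000671) and late in fructose (1.36 ± 0.23, adjusted p = 0.000314). Late in glucose the difference was 0.47 ± 0.23 (adjusted p = 0.0956) as deposited and -0.06 under equal sums. Under equal sums the early glucose difference was 1.01 and called, while those in fructose were 0.97 and 0.80, under the fold limit. CYC1 was the member called early in glucose by the fit relative to galactose (1.19, adjusted p = 0.0472). In WT cells CYC1 was at -0.83 early and -0.77 late in glucose, below 2-fold (adjusted p = 0.0114 and 0.068). CYC1 shares 79.4% identity over 315 aligned bases with CYC7.

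Complex IV, cytochrome c oxidase, reduces oxygen. Its 8 nuclear subunits moved least in WT cells among the complexes of more than 1 gene. Their medians were -0.24 early and -0.53 late in glucose and -0.15 early and -0.57 late in fructose. In any WT comparison 0 of 8 were called, also under equal sums. As deposited this is near the shares of all genes called lower (3.16% and 1.29% in glucose, 2.64% and 2.45% in fructose, early and late). For tps1 minus WT, 0 of 8 were called early in glucose (all genes 5.14% higher) or early in fructose (3.64%). Late calls were 2 in glucose (COX8 and COX12, all genes 11.0%) and 5 in fructose (9.61%). COX8 (YLR395C), which encodes a small subunit, had 1119, 1174, 1341, 1521, 1787, 2193, 2283 and 1219 FPKM in tps1 cells given glucose, against 1034, 1184, 1275, 879, 777, 673, 831 and 713 FPKM in WT cells. In fructose COX8 had 1012, 1179, 1928, 2284, 2538, 2599, 2963 and 3247 FPKM in tps1 cells, against 1001, 1185, 1833, 1433, 1130.0, 936, 1114 and 1048 FPKM in WT cells. COX8 in WT cells given fructose peaked at 5 min and stood above the WT glucose course at each time from 5 min on. COX8 was higher in tps1 cells late in glucose (1.31 ± 0.25, adjusted p = 0.000614) and late in fructose (1.50 ± 0.25, adjusted p = 0.000296), and under equal sums the differences were 0.78 and 0.94, under the fold limit. It rose in tps1 cells late in fructose against galactose (1.46 ± 0.28, adjusted p = 0.000194), a call lost under equal sums (0.54).

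COX5A (YNL052W), the aerobic isoform of subunit Va, ran against COX8 in tps1 cells given glucose. It had 1673, 1868, 1782, 1839, 1568, 1239, 779 and 662 FPKM in tps1 cells, against 1825, 1736, 1564, 1107, 1136, 1236, 1227 and 1079.5 FPKM in WT cells. At 60 and 120 min the tps1 values were below the WT values. The late strain difference in glucose was -0.45 ± 0.18 (adjusted p = 0.045), below 2-fold, and -0.98 under equal sums; late in fructose it was 0.62 ± 0.18 (adjusted p = 0.0105). The ratio of COX8 to COX5A, chosen after the values were seen, was 0.669, 0.629, 0.752, 0.827, 1.14, 1.77, 2.93 and 1.84 in tps1 cells given glucose, against 0.567, 0.682, 0.815, 0.794, 0.684, 0.545, 0.677 and 0.66 in WT cells. In fructose it was 0.593, 0.579, 0.888, 1, 1.17, 1.25, 1.71 and 2.17 in tps1 cells, against 0.553, 0.633, 1.1, 1.02, 1.03, 0.874, 0.909 and 0.92 in WT cells. From 30 min on the tps1 ratio exceeded every WT ratio in both sugars. COX12, the subunit VIb gene, differed between strains by 1.13 ± 0.23 late in glucose and 1.32 ± 0.23 late in fructose (adjusted p = 0.000838 and 0.000365), and neither was called under equal sums (0.60 and 0.75). COX4, COX6 and COX13 were the other genes called late in fructose, at 1.22, 1.26 and 1.17, and under equal sums they were at 0.66, 0.70 and 0.61, not called. COX7 and COX9 were called in none of the 16 comparisons.

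NDI1 (YML120C), the single-protein enzyme that oxidises matrix NADH in place of a proton-pumping complex I, was called lower after sugar in both strains, and its strain difference was called in neither sugar. It had 381, 292, 188, 129.6, 118, 99.5, 119.6 and 141 FPKM in tps1 cells given glucose, against 389.8, 229.6, 123, 81.4, 116, 119, 165 and 174 FPKM in WT cells. In fructose NDI1 had 335, 275, 226, 176, 148, 139, 123 and 123 FPKM in tps1 cells, against 397, 237, 146, 123, 103, 86.6, 137 and 176 FPKM in WT cells. All 28 libraries after sugar were below all 4 galactose libraries.

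In tps1 cells NDI1 was at -1.06 ± 0.36 early and -1.58 ± 0.38 late in glucose (adjusted p = 0.0369 and 0.00161), both called. In tps1 cells given fructose it was at -0.83 ± 0.36 early, not called, and -1.48 ± 0.38 late, called (adjusted p = 0.108 and 0.00274). In WT cells it was called in all 4 comparisons, at -1.61 ± 0.36 early and -1.37 ± 0.38 late in glucose and -1.43 ± 0.36 early and -1.62 ± 0.38 late in fructose (adjusted p = 0.00415, 0.0487, 0.013 and 0.011). Under equal sums the tps1 values were -1.60, -2.35, -1.32 and -2.39, all 4 called. The tps1 early glucose call was lost without either tps1 galactose library or without the 5, 10 or 15 min library, when the count of the set was 0. The WT calls were lost without either WT galactose library, the late WT calls also without the 30 or 60 min library, and the early WT fructose call without the 5 min library. The strain difference was 0.41 ± 0.16 early and -0.34 ± 0.18 late in glucose and 0.47 ± 0.16 early and 0.00 ± 0.18 late in fructose, below 2-fold in each (adjusted p = 0.0386, 0.115, 0.0286 and 1); under equal sums the late fructose value was -0.55.

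The ratio of NDI1 to SDH1, chosen after the values were seen, does not depend on the scaling of the libraries. It was 0.786, 0.527, 0.368, 0.267, 0.264, 0.301, 0.465 and 0.515 in tps1 cells given glucose, against 0.812, 0.529, 0.442, 1.38, 2.66, 1.51, 1.09 and 1.14 in WT cells. In fructose it was 0.687, 0.487, 0.369, 0.277, 0.244, 0.231, 0.24 and 0.223 in tps1 cells, against 0.831, 0.577, 0.494, 1.18, 1.67, 1.34, 1.01 and 1.08 in WT cells. It was lower at 3 and 5 min than in galactose in all 4 courses. From 10 min on it was above galactose in both WT courses and below galactose in both tps1 courses.

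**Figure D4:**
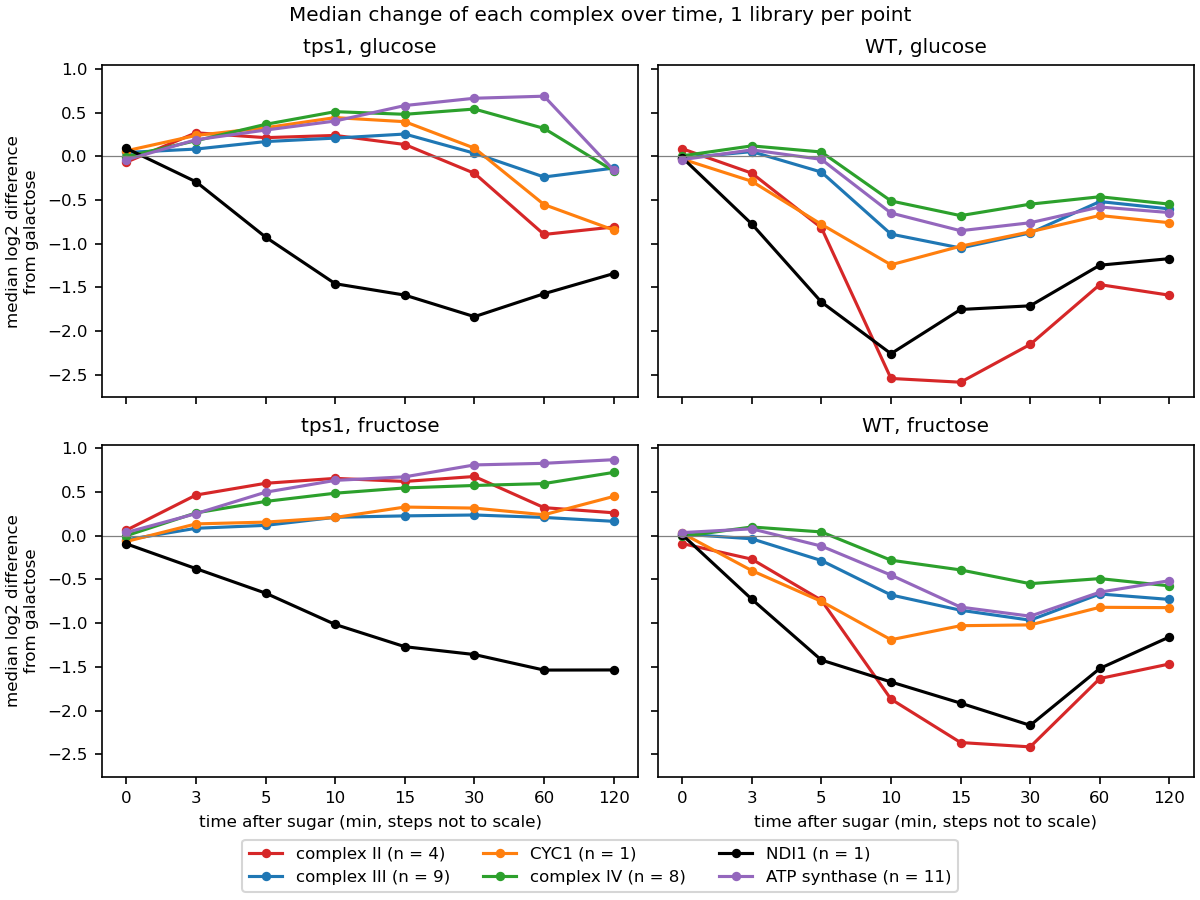
Median log2(FPKM + 1) difference from galactose for each complex against time, with tps1 panels left of WT panels, glucose above fructose, and 1 library per point. In WT cells complex II reaches -2.58 at 15 min of glucose; in tps1 cells given fructose NDI1 is the only line below 0 after sugar as deposited, while in glucose all lines end below 0, and equal FPKM sums lower all tps1 points after sugar.

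The ATP synthase consists of a catalytic F1 head (ATP1, ATP2, ATP3, ATP15 and ATP16 encode its alpha, beta, gamma, epsilon and delta subunits) and a membrane and stalk part to which ATP4, ATP5, ATP7, ATP14, ATP17 and ATP20 belong. None of the 11 genes was called in WT cells against galactose as deposited. Of all genes 3.16% early and 1.29% late in glucose, and 2.64% early and 2.45% late in fructose, were lower there. A count of 0 of 11 is near these shares. Under equal sums ATP20 was lower late in glucose (-1.01), and ATP1, ATP2, ATP7, ATP14, ATP15 and ATP20 were lower late in fructose (at the furthest -1.14, in ATP20). In tps1 cells 3 of 11 were called, all higher and all late in fructose (all genes 7.5% higher). They were ATP2 (1.26 ± 0.30, adjusted p = 0.00124), ATP5 (1.23 ± 0.25, adjusted p = 0.000333) and ATP4 (1.17 ± 0.22, adjusted p = 0.000144). Under equal sums these were 0.35, 0.31 and 0.25, none called. For tps1 minus WT, 2 of 11 were called early in glucose (all genes 5.14% higher) and 6 late in glucose (11.0%). In fructose 0 of 11 were called early (3.64%) and 8 late (9.61%).

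ATP2 (YJR121W), the beta subunit, had 2379, 3029, 3296, 3818, 4569.9, 5199, 3947 and 2150.0 FPKM in tps1 cells given glucose, against 2406, 2418, 2205, 1459, 1206, 1285, 1550.2 and 1588 FPKM in WT cells. In fructose ATP2 had 2247, 3039.9, 3534, 3942, 4331, 5259.6, 5728 and 5675 FPKM in tps1 cells, against 2369, 2374, 2197, 1873, 1355, 1176, 1525 and 1729 FPKM in WT cells. From 3 min on every tps1 value except that at 120 min of glucose was above every WT value. ATP2 was higher in tps1 cells early in glucose (1.05 ± 0.28, adjusted p = 0.0059), late in glucose (1.27 ± 0.32, adjusted p = 0.0038) and late in fructose (1.93 ± 0.32, adjusted p = 0.000264). Of these the late fructose difference was called under equal sums (1.37), the early glucose call was lost without the 10 or 15 min libraries and the late glucose call without the 30 min libraries.

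ATP5 (YDR298C), the subunit that joins the head to the stalk, had 1186, 1457, 1542, 1955, 2100.3, 2763, 2522 and 1355 FPKM in tps1 cells given glucose, against 1134, 1197, 1212, 869, 702, 705, 769 and 726 FPKM in WT cells. Its strain difference was 1.53 ± 0.26 late in glucose and 1.80 ± 0.26 late in fructose (adjusted p = 0.00028 and 0.000127), and under equal sums it was 1.24 in fructose, called, and just under the fold limit in glucose. ATP14 (YLR295C), subunit h, moved differently: it had 820.3, 884, 893, 816, 746, 664, 517 and 449 FPKM in tps1 cells given glucose, against 773, 871, 783, 509, 477, 473, 526 and 478 FPKM in WT cells. ATP14 was called in no comparison as deposited. The ratio of ATP5 to ATP14, chosen after the values were seen, was 1.45, 1.65, 1.73, 2.4, 2.82, 4.16, 4.88 and 3.02 in tps1 cells given glucose, against 1.47, 1.38, 1.55, 1.71, 1.47, 1.49, 1.46 and 1.52 in WT cells. In fructose it was 1.3, 1.7, 1.83, 2.21, 2.6, 3.15, 3.72 and 3.71 in tps1 cells, against 1.4, 1.47, 1.75, 2.18, 1.76, 1.75, 1.58 and 1.58 in WT cells, so the tps1 ratio was above every WT ratio from 15 min on in both sugars.

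The other ATP synthase genes called late in glucose were ATP15 (1.21 ± 0.29), ATP16 (1.23 ± 0.31), ATP17 (1.23 ± 0.27) and ATP7 (1.13 ± 0.26), with adjusted p = 0.00288, 0.00382, 0.0014 and 0.00229; the ATP16 and ATP7 calls were lost without the 30 min libraries. Under equal sums these 4 were at 0.68, 0.70, 0.70 and 0.60, and none was called. ATP15 was also called early in glucose (1.03 ± 0.25, adjusted p = 0.00409), a call lost without the 10 or 15 min libraries and under equal sums (0.71). Late in fructose ATP1, ATP4, ATP7, ATP15, ATP16 and ATP17 joined ATP2 and ATP5, with differences between 1.22 (ATP4) and 1.57 (ATP15); of these 6 ATP15 was called under equal sums (1.01). ATP3 and ATP20 were called in no comparison as deposited. ATP4 was higher in fructose than in glucose in WT cells at each time from 3 min on, for instance 843 FPKM in fructose and 595 FPKM in glucose at 5 min.

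Glucose and fructose were compared at matched times within each strain, as glucose minus fructose over the 7 times after sugar. In tps1 cells 0 of 34 genes passed the fold limit in either direction (all genes 0.306% higher and 0.387% lower), and 19 of 34 had an unadjusted p under 0.05 (all genes 40.9%). Without the fold limit 1 was higher (12.5%) and 16 lower (16.6%) in glucose than in fructose, with a median of -0.24. The 4 complex II genes were among the 16, with SDH4 at -0.73 ± 0.07 (adjusted p = 9.54e-05) and SDH2 at -0.64 ± 0.10 (adjusted p = 0.00065). ATP4 was at -0.71 ± 0.10 (adjusted p = 0.000496), COX5A at -0.61 ± 0.07 (adjusted p = 0.000183) and NDI1 at -0.18 ± 0.10 (adjusted p = 0.206). The gene that was higher in glucose was QCR9 (0.39 ± 0.06, adjusted p = 0.000872). Under equal sums the counts without the fold limit were 1 higher and 18 lower.

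In WT cells 0 of 34 passed the fold limit in either direction (all genes 0.0484% higher and 0.21% lower), and 10 had an unadjusted p under 0.05 (all genes 21.1%). Without the fold limit 1 was higher (1.89%), QCR10 at 0.29 ± 0.07 (adjusted p = 0.0272), and 2 were lower (2.72%), ATP4 at -0.52 ± 0.10 (adjusted p = 0.0147) and ATP17 at -0.45 ± 0.09 (adjusted p = 0.0152). The median was -0.04 as deposited and 0.04 under equal sums. Whether the strain difference itself differed between sugars was tested directly: 0 of 34 genes were called (0.0645% of all genes higher and 0.0322% lower), 1 had an unadjusted p under 0.05 (all genes 14.5%), and the median was -0.19. The late counts were 23 in fructose and 11 in glucose. Because the test averaged early and late times, it cannot say whether the late strain difference alone differed between the sugars.

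The share of a library's summed FPKM held by the 34 genes does not depend on scaling. In tps1 cells given glucose it was 3.71%, 3.61%, 3.59%, 3.21%, 3.29%, 2.82%, 2.47% and 1.91% at 0, 3, 5, 10, 15, 30, 60 and 120 min, against 3.59%, 3.66%, 2.88%, 1.8%, 1.63%, 1.71%, 2.07% and 2.08% in WT cells. In fructose it was 4.02%, 3.71%, 3.43%, 3.53%, 3.37%, 3.29%, 3.06% and 2.86% in tps1 cells, against 3.49%, 3.44%, 2.83%, 1.98%, 1.76%, 1.58%, 1.9% and 1.92% in WT cells. The WT share reached its lowest value at 15 min of glucose and 30 min of fructose and was higher again at 60 and 120 min. The tps1 share was lower at 120 min than in galactose in both sugars, and at 120 min of glucose it was below the WT share. The share divides by the sum over all genes, whereas equal sums leave out unmatched genes and those under 300 bases. These totals parted in the tps1 library at 120 min of glucose, so the order of the strains there depends on the total used. A lower share of RNA and less RNA per cell cannot be told apart in these bulk samples.

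**Figure D5:**
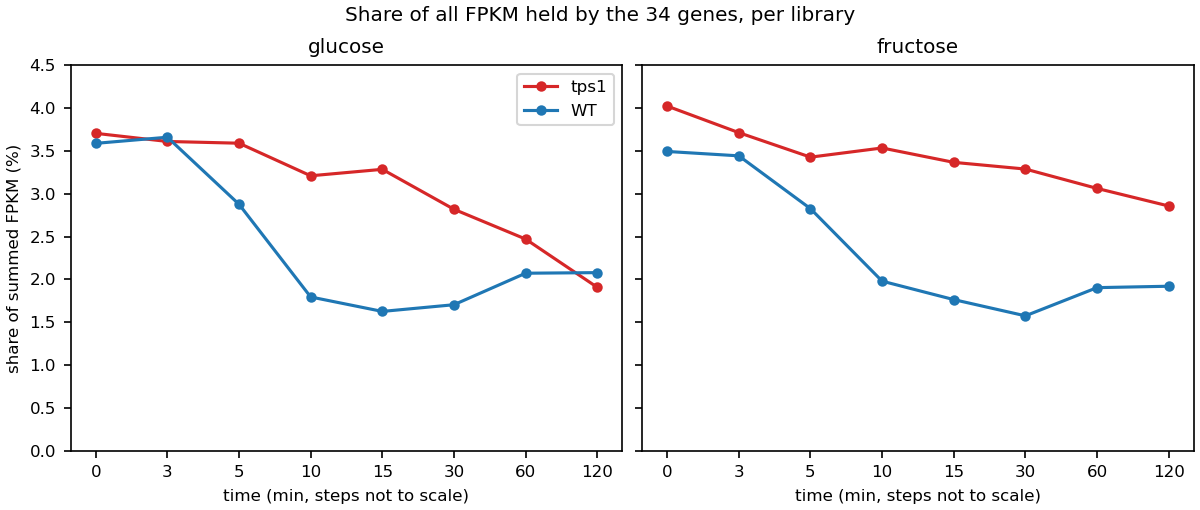
Share of all summed FPKM held by the 34 genes (percent, from 0) against time in glucose and fructose, tps1 in red and WT in blue, 1 library per point. From 5 min to 60 min the tps1 share is above the WT share in both sugars; at 120 min of glucose it is 1.91% in tps1 cells and 2.08% in WT cells.

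Other genes of respiration were taken from lists made by function. Whether their calls hold without single libraries is not given, while the WT calls of the 34 genes against galactose rested on both galactose libraries. Among regulators HAP4, the activating subunit of the HAP complex, had 187, 86.9, 57, 39.8, 41.6, 34.1, 55.4 and 91.5 FPKM in tps1 cells given glucose, against 149.8, 25.8, 16.4, 39.1, 52.1, 47.5, 74.1 and 65.8 FPKM in WT cells. In fructose HAP4 had 154, 80.7, 68.3, 52.3, 45.2, 43.7, 40.3 and 35 FPKM in tps1 cells, against 177, 24.3, 18.1, 38.9, 41.5, 41.2, 64.3 and 66.9 FPKM in WT cells. All 28 values after sugar were below all 4 galactose values, while in tps1 cells most of the 34 genes were above galactose in the early libraries of both sugars as deposited. HAP4 fell in tps1 cells in all 4 comparisons (-1.65 early and -1.59 late in glucose, -1.48 early and -2.08 late in fructose; adjusted p = 0.00628, 0.0032, 0.0125 and 0.000292). In WT cells it fell early in glucose (-2.37), early in fructose (-2.45) and late in fructose (-1.52), and late in glucose it was at -1.39 and not called (adjusted p = 0.0651). At 3 and 5 min HAP4 was higher in tps1 cells than in WT cells in both sugars, and the early fructose difference was called (1.02 ± 0.36, adjusted p = 0.0367), though not under equal sums (0.81).

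ROX1, a repressor of hypoxic genes, differed between strains in the other direction. It rose in WT cells early in glucose (1.68, adjusted p = 0.00316) and early in fructose (1.29, adjusted p = 0.0208), the fructose call being lost under equal sums (1.08), and fell in tps1 cells late in fructose (-1.27, adjusted p = 0.00785). ROX1 was lower in tps1 cells early in glucose (-2.15 ± 0.23, adjusted p = 2.24e-05), early in fructose (-1.67 ± 0.23, adjusted p = 0.000161) and late in fructose (-1.03 ± 0.26, adjusted p = 0.00469). Of the minor isoforms, CYC7, the second cytochrome c, had 72.7, 63.6, 69.9, 80.8, 81, 58.1, 81.4 and 65.2 FPKM in tps1 cells given glucose, against 74.5, 47.6, 22.2, 0.803, 7.08, 14.8, 28.3 and 16.2 FPKM in WT cells. CYC7 fell in WT cells early in glucose (-2.47 ± 0.75, adjusted p = 0.0262). Its strain difference was 2.72 ± 0.63 early and 1.78 ± 0.73 late in glucose (adjusted p = 0.00287 and 0.0494). The late call was lost under equal sums (1.26). The early WT glucose values spread widely (19.4 ± 20.8 FPKM, SD) and included 0.803 FPKM, near the floor. Whether the calls hold without that library is not given. In fructose CYC7 averaged 52.7 ± 10.8 FPKM early and 47.5 ± 8.16 FPKM late in tps1 cells (SD). In WT cells it averaged 23.0 ± 13.1 and 18.3 ± 4.36 FPKM. Under equal sums 0 of the 5 minor isoforms were called between strains in fructose, early or late. COX5B, the hypoxic counterpart of COX5A, was called in no comparison and shares 81.8% identity over 99 aligned bases with COX5A.

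Among 5 other dehydrogenases that feed the chain, GUT2, the mitochondrial glycerol-3-phosphate dehydrogenase, fell in WT cells early in glucose (-2.55 ± 0.54, adjusted p = 0.00287) and early in fructose (-2.65 ± 0.54, adjusted p = 0.00302). It had 192, 109, 90.8, 78.9, 76.1, 69, 64.1 and 62.3 FPKM in tps1 cells given glucose, against 142, 74.8, 24, 8.34, 15.6, 24.2, 47.6 and 55 FPKM in WT cells. GUT2 fell in tps1 cells late in glucose (-1.49 ± 0.57, adjusted p = 0.0349). As deposited each tps1 value was above the WT value of the same time, at 0 min as well. Equal FPKM sums divided the glucose libraries at 60 min by 1.46 in tps1 cells and 0.87 in WT cells. At 120 min they divided by 1.04 and 0.88, and at both times the order of the strains then turned. CYB2, the lactate cytochrome c oxidoreductase, was higher in tps1 cells in all 4 comparisons (1.86 early and 1.47 late in glucose, 1.54 early and 1.63 late in fructose; adjusted p = 0.0035, 0.0251, 0.0153 and 0.0157), and under equal sums in the early comparisons (1.55 and 1.32) but not the late ones (0.94 and 1.07). Of these 5 genes 3, 2, 3 and 3 were higher in tps1 cells, in that order, and 0 lower (all genes 5.14%, 11.0%, 3.64% and 9.61% higher), and under equal sums 2, 1, 2 and 1 were higher (2.64%, 4.31%, 2.44% and 3.02%). NDE2, an external NADH dehydrogenase, rose in tps1 cells late in glucose (1.06 ± 0.21, adjusted p = 0.000224), a call lost under equal sums (0.36). Of 8 further ATP synthase and supercomplex parts, COX26, a complex IV supercomplex subunit, fell in WT cells in all 4 comparisons (-3.22 early and -4.34 late in glucose, -2.66 early and -3.75 late in fructose). STF1, a stabilising factor of the inhibited ATP synthase, was higher in tps1 cells in all 4 (2.00, 2.03, 1.65 and 2.09). Under equal sums 1, 1, 1 and 5 of the 8 were lower in WT cells against galactose (all genes 4.05%, 2.18%, 3.97% and 6.52%), and 0 higher (2.48%, 0.323%, 1.03% and 0.726%). For tps1 minus WT 1, 2, 1 and 2 were then higher (2.64%, 4.31%, 2.44% and 3.02%), and 0 lower (14.5%, 27.3%, 8.48% and 24.9%).

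Among assembly factors every call in tps1 cells against galactose was lower. In tps1 cells 3 of 33 fell early in glucose (all genes 3.27%), 14 late in glucose (7.85%), 1 early in fructose (2.37%) and 12 late in fructose (8.77%), with 0 higher in each. COX10, needed to make the haem A of complex IV, fell in tps1 cells in all 4 comparisons (-1.92 early and -2.14 late in glucose, -1.66 early and -2.68 late in fructose; adjusted p = 0.00667, 0.0011, 0.017 and 0.000124). It was lower in tps1 than in WT cells in all 4 as well (-1.49, -1.65, -1.22 and -1.92). ATP12, a chaperone for the F1 head, fell in tps1 cells late in glucose (-1.60 ± 0.24, adjusted p = 1.49e-05). CYC3, the cytochrome c haem lyase, was higher in tps1 cells early in glucose (1.54 ± 0.36, adjusted p = 0.00283) and late in fructose (1.61 ± 0.41, adjusted p = 0.0047). For tps1 minus WT late in fructose, 3 of 33 assembly factors were higher (all genes 9.61%) and 3 lower (9.79%), and under equal sums 1 was higher (3.02%) and 8 lower (24.9%), so the shares lay near those of all genes. Late in tps1 cells against galactose, equal sums raised the counts of lower assembly factors to 29 in glucose (35.3%) and 27 in fructose (41.0%). In WT cells 1, 2, 1 and 5 of 33 fell (all genes 3.16%, 1.29%, 2.64% and 2.45%), in the order early glucose, late glucose, early fructose and late fructose, CBP4, an assembly factor of complex III, among those late in fructose (-1.74 ± 0.51, adjusted p = 0.0309).

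Of 10 coenzyme Q genes, COQ2, which attaches the isoprenoid tail, was lower in tps1 cells late in glucose (-2.04 ± 0.42, adjusted p = 0.00104) and late in fructose (-2.11 ± 0.42, adjusted p = 0.000974), while COQ9 was higher (1.81 ± 0.30 and 1.73 ± 0.30, adjusted p = 0.000209 and 0.000359), as were COQ4 and COQ5 (1.49 and 1.58 late in glucose); of these COQ4 was not called under equal sums (0.97). Of 5 carriers and pores, POR1, the outer membrane porin, was higher in tps1 cells late in glucose (1.80 ± 0.31, adjusted p = 0.000265) and late in fructose (2.13 ± 0.31, adjusted p = 0.000117), and AAC1, an ADP/ATP carrier, in all 4 comparisons (1.30 early and 1.69 late in glucose, 1.10 early and 1.93 late in fructose), of which the early calls were lost under equal sums (0.99 and 0.88). POR1 fell in WT cells late in glucose (-1.06 ± 0.28, adjusted p = 0.038). The mitochondrially encoded partners could not be followed in these poly(A)-selected libraries: 2 of 7 such genes, COX1 and OLI1, passed the filter on low values (a mean of at least 1 FPKM), and neither was called.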

How the data were processed

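RNA of 32 yeast libraries was poly(A)-selected and sequenced from a stranded kit, per the labels' protocols. The submitters' processing notes name CASAVA 1.4, TopHat2, Cuffnorm and the build sacCer3; the annotation, the strand setting and the scaling of libraries are not given in the sources used here. The authors deposited 1 table of FPKM values for 6717 genes, in which fragment numbers are scaled by transcript length and by library depth, so FPKM are not counts. An unnamed row, at most 0.000761% of a library's FPKM, was left out. Gene names and coordinates come from RefSeq R64, which matched 6032 identifiers and left 685 unmatched.

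Libraries were grouped by the strain, sugar and time in the labels. The 6203 genes that averaged 1 FPKM or more, all 34 members among them, were tested on log2(FPKM + 1) in limma 3.58.1 (R 4.3.3), with the prior variance following a trend and p-values adjusted over these genes by the Benjamini-Hochberg method. A fold change on this scale understates that of low genes. The strains in galactose were compared over the 4 libraries at 0 min, comparisons with galactose used 1 fit of all 32 libraries, and strain and sugar comparisons after sugar used differences at matched times, which makes 16 comparisons. Calls required 2-fold or more together with an adjusted p under 0.05. The members and the other lists were chosen with earlier results of these data known. Named genes follow a rule: TPS1 as a check of the labels, CYC1 and NDI1 always, up to 2 called members per complex, comparison and direction, any member called against most of its complex, the remaining members to account for all 34, and from each other list up to 2 called genes per direction, with HAP4, CYC7 and COX5B always; the ratios of members were chosen after their values were seen.

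Alternatives were pseudocounts of 0.1 and 5, no filter, no trend, median-of-ratios scaling and equal FPKM sums over genes of at least 300 bases. Unmatched genes are left out of these sums. Further alternatives were no matching by time, differences relative to galactose, the spread of matched differences alone, and leaving out each galactose library or time. Depth over genes of 400 bases or more was estimated from the steps between low FPKM values, of which 90.7% of 1672 lay within 0.1 of a whole fragment. The step was chosen to bring these same values near whole numbers, so that percentage is not an independent check. Libraries are serial samples, so precision refers to these courses only. Promoter windows were read from R64, and identity between genes came from blastn 2.17.0.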

Additional observations from a re-analysis of the deposited data

Results flagged for a closer look

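The response to sugar, taken relative to each strain's galactose libraries, differed between tps1 and WT cells by the test of the difference itself (limma, adjusted p under 0.05 and at least 2-fold). It did so for 1 of 34 genes early in glucose, CYC1, for 6 late in glucose (ATP5, COR1, COX12, COX8, CYT1 and SDH3) and for 20 late in fructose. All of these were higher in tps1 cells. Early in fructose 0 of 34 passed. Of all genes tested, 1.61% early and 8.22% late in glucose and 7.34% late in fructose were higher in tps1 cells by this test. The test used the deposited scaling alone. Equal FPKM sums lower tps1 values after sugar relative to galactose, and how many of these calls would hold under them is not given.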

How the results depend on the processing

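The counts of called members kept within 1.5 times of the reported count under most settings, and no gene's call changed sign. The exceptions were these. Early in tps1 cells given fructose, equal FPKM sums gave 1 where 0 were called as deposited. Late in tps1 cells given glucose the 2 calls became 1 under median-of-ratios scaling and 11 under equal FPKM sums. Late in tps1 cells given fructose the total of 6 became 5 under equal sums, but 5 higher and 1 lower became 0 higher and 5 lower. The 1 call late in WT cells given glucose became 0 with a pseudocount of 0.1, without the filter or without the trend, 2 with a pseudocount of 5 or median-of-ratios scaling, and 4 under equal sums. Equal sums gave 3 for the 1 call early and 19 for the 5 calls late in WT cells given fructose. For tps1 against WT, equal sums gave 1 for the 11 calls late in glucose and 8 for the 23 late in fructose. The fit relative to galactose gave 1 for the 7 calls early in glucose, 6 for the 11 late in glucose and 0 for the 5 early in fructose.

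Leaving out 1 galactose library or 1 time gave ranges of 0 to 1 (tps1 early glucose), 1 to 3 (tps1 late glucose), 0 to 2 (tps1 early fructose), 6 to 7 (tps1 late fructose), 0 to 6 (WT early glucose), 0 to 1 (WT late glucose), 0 to 4 (WT early fructose) and 0 to 8 (WT late fructose). For tps1 against WT they were 3 to 15 early and 8 to 14 late in glucose, and 3 to 10 early and 22 to 26 late in fructose. Of the 65 gene calls, 31 held under equal sums and 34 did not, 63 held without the filter and 64 under median-of-ratios scaling. The cause of these changes was not tested, but equal sums by construction lower tps1 values after sugar relative to galactose.

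No paired analysis was possible because the labels give no replicate numbers to pair by, apart from the matching by time that the strain and sugar comparisons already use. The 4 galactose libraries limit all comparisons with galactose. The depth of a library was estimated and not stated, so no counting interval is given.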
